A study of Mus musculus with 18 samples.

Results

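The response common to 4 chemicals in mouse lung is described here as the mean of their 4 effects, each effect being the log2 signal under a chemical minus that of its own control. NDA (1,5-naphthalenediamine, 2000 ppm), NEDD (N-(1-naphthyl)ethylenediamine dihydrochloride, 2000 ppm) and PCNB (pentachloronitrobenzene, 8187 ppm) were given in feed and were set against mice on rodent chow alone (feed control). Benzofuran (2,3-benzofuran, 240 mg/kg by gavage) was set against gavage with corn oil at 5 ml/kg (corn oil control). All 18 arrays entered, 3 in each of the 6 groups and 1 animal per array, and 3631 of 13434 genes tested (27%) had 4 effects of the same sign. Of these genes, 29 were also called for the mean effect, which means an adjusted p under 0.05 in limma after Benjamini-Hochberg adjustment over all genes.

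All mice were female B6C3F1 hybrids, aged 18 weeks at sampling, and had been treated for 13 weeks, with feed offered on all 7 days of the week and gavage given on 5. The submitters class NDA and benzofuran as positive for lung tumours in long bioassays, and NEDD and PCNB as negative. Total RNA came from the right lung lobe as a whole, so that fewer cells of a type and less RNA per cell cannot be told apart. Each chemical was given at 1 dose, which was the same concentration in feed, 2000 ppm, for NDA and NEDD. A difference that involves PCNB or benzofuran is also a difference between doses and, for benzofuran, between routes. The tissue label fits the signal: Sftpc of alveolar type 2 cells, Scgb1a1 of club cells and Ager of alveolar type 1 cells lay at or above the 99.9th percentile of every array, and Cdh5 of endothelium at or above the 91.6th.

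Cells meet foreign chemicals with a set of enzymes that oxidise, reduce, hydrolyse or conjugate them. The transcription factor NRF2 is released from its inhibitor KEAP1 by electrophiles and oxidants and binds antioxidant response elements of genes for glutathione, thioredoxin and quinone metabolism. The aryl hydrocarbon receptor (AhR) is opened by planar aromatic ligands, binds xenobiotic response elements and drives Cyp1a1. In lung these enzymes are rich in club cells of the airway, where some chemicals are turned into reactive products.

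The mean effect raised 47 genes (0.35% of the genes tested) and lowered 0 in limma, while 729 genes (5.43%) were higher and 603 (4.49%) lower at an unadjusted p under 0.05. Of the 47, 29 (0.216% of the genes tested) had 4 positive effects and 18 had effects of mixed sign. Over all genes tested, 1829 (13.6%) had 4 positive and 1802 (13.4%) had 4 negative effects, so that shared sign alone was about as frequent in either direction. The calls lay on the higher side in this fit, but with array weights 269 genes were higher and 284 lower. Carboxylesterase Ces1g was the single gene called in all 4 chemicals taken one by one (0.00744% of the genes tested). All 12 treated arrays lay above all 6 control arrays in 3 genes (0.0223%), namely Ces1g, the glutathione transferase Gstp1 and the aldo-keto reductase Akr1b8. They lay below in 1 gene (0.00744%), the chaperonin subunit Cct8, which was not called.

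The promoters of these 3 enzymes are shown because their arrays lay apart from all controls, and those of Cyp1a1 and Nqo1 because they are among the genes with the largest mean effects and are the best-known targets of AhR and NRF2. They are RefSeq windows of assembly GRCm38.p6, running from 250 bases before to 50 bases after the annotated start and printed 5′ to 3′ along the gene. Capitals mark TGANNNNGC, the core of the antioxidant response element, and GCGTG, the core of the xenobiotic response element, searched on both strands, where overlapping matches run together. Ces1g lies on the minus strand at chr8:93337160-93337459, Gstp1 on the minus strand at chr19:4037863-4038162, Akr1b8 on the plus strand at chr6:34353896-34354195, Cyp1a1 on the plus strand at chr9:57697363-57697662 and Nqo1 on the minus strand at chr8:107403156-107403455.
Ces1g: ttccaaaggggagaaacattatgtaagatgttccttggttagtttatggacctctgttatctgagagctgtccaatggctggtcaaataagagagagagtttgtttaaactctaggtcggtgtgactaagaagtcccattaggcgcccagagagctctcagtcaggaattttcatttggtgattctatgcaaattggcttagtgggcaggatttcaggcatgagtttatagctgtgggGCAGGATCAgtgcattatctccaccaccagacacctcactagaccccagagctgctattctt
Gstp1: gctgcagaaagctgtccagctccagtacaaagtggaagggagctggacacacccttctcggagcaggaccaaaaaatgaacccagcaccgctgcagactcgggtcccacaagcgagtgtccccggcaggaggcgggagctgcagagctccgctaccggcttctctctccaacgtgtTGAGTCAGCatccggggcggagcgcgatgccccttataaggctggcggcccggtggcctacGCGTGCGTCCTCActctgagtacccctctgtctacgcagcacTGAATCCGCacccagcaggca
Akr1b8: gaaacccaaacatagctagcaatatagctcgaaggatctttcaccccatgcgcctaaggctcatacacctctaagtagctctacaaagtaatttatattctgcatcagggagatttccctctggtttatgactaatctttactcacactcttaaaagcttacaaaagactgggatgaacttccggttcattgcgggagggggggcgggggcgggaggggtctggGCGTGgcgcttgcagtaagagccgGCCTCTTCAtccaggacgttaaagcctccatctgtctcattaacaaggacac
Cyp1a1: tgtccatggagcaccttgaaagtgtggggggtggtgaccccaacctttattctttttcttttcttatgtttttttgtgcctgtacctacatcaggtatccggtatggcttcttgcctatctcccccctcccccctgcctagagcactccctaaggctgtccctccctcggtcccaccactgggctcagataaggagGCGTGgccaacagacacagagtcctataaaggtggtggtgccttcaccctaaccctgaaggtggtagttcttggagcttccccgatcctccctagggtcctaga
Nqo1: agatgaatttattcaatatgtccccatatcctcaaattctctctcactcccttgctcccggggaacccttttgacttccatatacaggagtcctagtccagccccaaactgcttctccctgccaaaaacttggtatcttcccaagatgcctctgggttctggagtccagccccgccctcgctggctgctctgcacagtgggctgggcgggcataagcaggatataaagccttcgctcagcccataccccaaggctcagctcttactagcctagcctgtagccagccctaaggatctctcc
The Ces1g window held 1 match to TGANNNNGC, the Gstp1 window 3 and the Akr1b8 window 1. GCGTG occurred once each in the Gstp1, Akr1b8 and Cyp1a1 windows and was absent from the Ces1g window. The Nqo1 window held 0 matches to either motif and the Cyp1a1 window 0 to TGANNNNGC. TGANNNNGC was present in 41.3% of all 32851 mouse windows and in 24 of the 34 windows that matched 26 of the 29 genes. GCGTG was present in 32.4% of all windows and in 17 of the 34. A match is a description of the letters in the window and not evidence of binding.

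Ces1g, which hydrolyses esters of drugs and lipids, had the smallest p for the mean effect of all genes tested. Its log2 signals were 10.07, 10.04 and 9.99 with NDA, 6.05, 5.98 and 6.21 with NEDD, 6.42, 6.15 and 6.44 with PCNB, against 5.48, 5.13 and 5.37 in feed control. With benzofuran they were 9.17, 8.76 and 9.06, against 5.76, 5.74 and 5.59 in corn oil control. No treated array overlapped a control array, with NEDD 14 the lowest treated and corn oil 22 the highest control array. The mean of the 4 effects was 2.44 ± 0.08 (SE, 3 arrays per group), a 5.44-fold rise with an adjusted p of 1.78e-12 in limma. The single effects were 26.2-fold with NDA, 1.69-fold with NEDD, 2.01-fold with PCNB and 9.82-fold with benzofuran. The adjusted p for NEDD alone was 0.0371 in limma, and that call was lost in 12 of the 18 fits that left out 1 array.

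Ces1f, which is also on chromosome 8 and of the same family, rose by 0.85 ± 0.12 in the mean effect (adjusted p = 0.000954 in limma). Its signals were 7.97 to 8.09 with NDA, 6.56 to 6.77 with NEDD and 6.49 to 6.77 with PCNB, against 6.15 to 6.50 in feed control. With benzofuran they were 7.32 to 7.94, against 6.23 to 6.98 in corn oil control. NDA, NEDD and benzofuran arrays lay apart from their controls, and PCNB arrays overlapped theirs. The Ces1f probe set is of a type that can match several transcripts, so that signal from related carboxylesterases cannot be told apart. Of the 9 carboxylesterases tested, these 2 rose (22.2%, against 0.35% of all genes), and the other 7 did not pass the test. Among those, Ces1e and Ces4a had effects of mixed sign and Ces2b and Ces2g had 4 negative effects, values looked up after the calls were known. Over all 9, 3 genes had 4 positive effects, 2 had 4 negative effects and 4 had mixed sign.

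Gstp1 conjugates glutathione to electrophiles and is abundant in airway cells. Its signals were 12.69, 12.83 and 12.74 with NDA, 12.19, 12.00 and 12.17 with NEDD, 12.05, 12.04 and 12.20 with PCNB, against 11.93, 11.83 and 11.81 in feed control. Benzofuran lungs had 12.60, 12.54 and 12.54, against 11.79, 11.86 and 11.99 in corn oil control. The groups did not overlap, although NEDD 14 at 12.00 and corn oil 25 at 11.99 were almost level. The effects were 0.90, 0.26, 0.24 and 0.68 for NDA, NEDD, PCNB and benzofuran, and their mean was 0.52 ± 0.06 (adjusted p = 0.000109 in limma). Gstp1 and Ces1g were the only genes among the 29 with an unadjusted p under 0.05 in each of the 4 effects. Gstp2, a near-identical neighbour gene, may share this probe set's signal.

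Akr1b8 reduces aldehydes and ketones with NADPH. It had 9.58, 9.70 and 9.64 with NDA, 8.80, 8.68 and 8.65 with NEDD, 8.75, 9.10 and 8.81 with PCNB, against 8.55, 8.62 and 8.28 in feed control. Benzofuran lungs had 9.26, 9.03 and 9.60, against 8.22, 8.55 and 8.54 in corn oil control. NEDD 15 at 8.65 stood just above feed control 28 at 8.62, so that the separation of all 12 from all 6 arrays was narrow. The mean effect was 0.66 ± 0.09 (adjusted p = 0.00115 in limma).

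**Figure D1:**
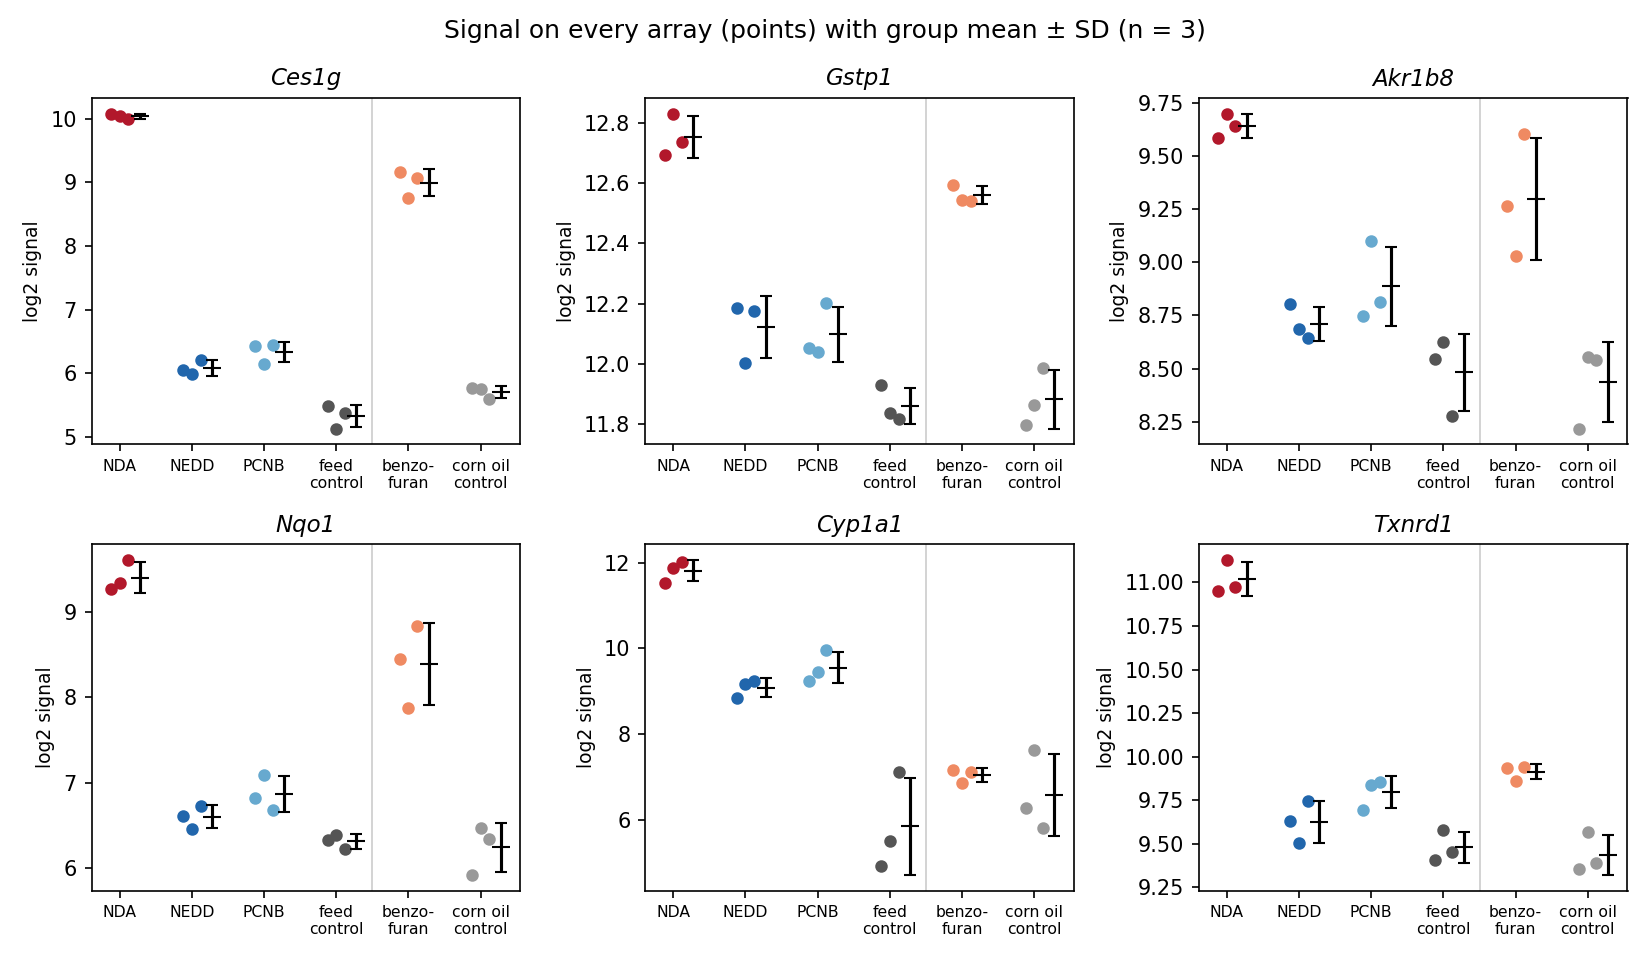
Log2 signal on every array (points) for Ces1g, Gstp1, Akr1b8, Nqo1, Cyp1a1 and Txnrd1, with group mean and SD (bars, n = 3) and a grey line between the feed groups and the gavage groups. NDA stands highest in each panel, benzofuran lies next in all but Cyp1a1, and NEDD and PCNB lie nearer the controls except in Cyp1a1.

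Cyp1a1, the monooxygenase driven by AhR, had the largest mean effect of the 29 genes and the most uneven one across routes. Signals were 11.53, 11.88 and 12.02 with NDA, 8.83, 9.18 and 9.25 with NEDD, 9.25, 9.44 and 9.95 with PCNB, against 4.93, 5.51 and 7.12 in feed control. With benzofuran they were 7.16, 6.87 and 7.13, against 6.29, 7.64 and 5.81 in corn oil control. Every feed treatment lay above feed control on all arrays, and benzofuran overlapped corn oil control. The 4 effects were 5.96, 3.23, 3.70 and 0.47, with a mean of 3.34 ± 0.29 (adjusted p = 5.76e-06 in limma). The benzofuran effect had an adjusted p of 0.593 in limma. The mean of the 3 feed effects exceeded the benzofuran effect by 3.82 ± 0.56 (adjusted p = 0.00759 in limma). Corn oil control was 0.73 ± 0.44 above feed control for Cyp1a1, a difference that was not called, and both controls spread by over 1 log2 unit.

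Of the 6 AhR targets tested, 3 rose in the mean effect (50%, against 0.35% of all genes), namely Cyp1a1, the quinone reductase Nqo1 and the aldehyde dehydrogenase Aldh3a1. Nqo1, a target of NRF2 as well, had 9.27, 9.34 and 9.61 with NDA, 6.61, 6.46 and 6.73 with NEDD, 6.82, 7.09 and 6.68 with PCNB, against 6.33, 6.38 and 6.22 in feed control. Benzofuran lungs had 8.45, 7.88 and 8.84, against 5.92, 6.46 and 6.34 in corn oil control. Each chemical's arrays lay above its own control, and the lowest treated array, NEDD 14, was level with corn oil 24 at 6.46. The mean effect was 1.52 ± 0.13 (adjusted p = 4.57e-06 in limma), from effects of 3.10, 0.29, 0.56 and 2.15. Aldh3a1 had a mean effect of 0.76 ± 0.14 (adjusted p = 0.0169 in limma) with a NEDD effect of -0.34, so that it is among the genes of mixed sign. Cyp1b1, Tiparp and Nfe2l2, the other 3 genes of the list, had mean effects of 0.56, 0.11 and -0.02 and were not called.

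NRF2 targets held 15 of the 47 risers. Of 25 tested, 15 rose (60%, against 0.35% of all genes) and 0 fell, and 12 of the 25 had 4 positive effects. The median effect over the list was 0.85 with NDA, 0.00 with NEDD, 0.21 with PCNB and 0.48 with benzofuran, while the median of all genes tested was -0.02, -0.02, -0.02 and 0.05 in that order. The list had been drawn up with earlier results of these data known, and it shares Nqo1 with the AhR list.

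Within glutathione metabolism, Gpx2, a peroxidase of epithelia, had 11.15, 11.32 and 11.22 with NDA, 8.95, 8.84 and 8.90 with NEDD, 8.90, 9.25 and 9.08 with PCNB, against 8.82, 8.97 and 8.57 in feed control. Benzofuran lungs had 10.19, 10.02 and 10.79, against 8.43, 8.64 and 8.89 in corn oil control. NDA and benzofuran lay apart from their controls, and NEDD and PCNB overlapped theirs. Its mean effect was 1.13 ± 0.11 (adjusted p = 2.67e-05 in limma). The transferases Gstm1 and Gstm3 rose by 0.56 ± 0.06 and 0.54 ± 0.11, and their probe sets are of types that can match several members of this family. Gclm, the modifier subunit of the enzyme that starts glutathione synthesis, rose by 0.57 ± 0.07 and Gss, which completes it, by 0.38 ± 0.07. The effects of Gss were 0.92, 0.02, 0.07 and 0.50 for NDA, NEDD, PCNB and benzofuran.

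In thioredoxin metabolism, Txnrd1, which reduces thioredoxin with NADPH, had 10.95 to 11.13 with NDA, 9.50 to 9.74 with NEDD and 9.69 to 9.86 with PCNB, against 9.40 to 9.58 in feed control. Benzofuran lungs had 9.86 to 9.94, against 9.35 to 9.57 in corn oil control. NDA, PCNB and benzofuran lay apart from their controls, and NEDD overlapped. The mean effect of Txnrd1 was 0.62 ± 0.06 (adjusted p = 4.82e-05 in limma). Srxn1, which repairs oxidised peroxiredoxins, followed the same order with effects of 1.62, 0.14, 0.45 and 0.58 for NDA, NEDD, PCNB and benzofuran. Pgd, an NADPH-forming enzyme of the pentose phosphate pathway, rose by 0.39 ± 0.06. Its effects were 0.83, 0.01, 0.25 and 0.48 for NDA, NEDD, PCNB and benzofuran.

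Some further members act on heme or its products, a grouping made after the calls were known. Hmox1, which opens the heme ring, rose by 0.59 ± 0.12, Blvrb, a reductase of biliverdin and flavin, by 0.62 ± 0.09, and Slc48a1, a heme transporter, by 0.31 ± 0.06. Slc48a1 had the smallest mean effect of the 29. Over the 18 fits that left out 1 array, the call was kept in 2 for Hmox1, in 5 for Slc48a1 and in 18 for Blvrb. Ephx1, which hydrolyses epoxides, rose by 0.38 ± 0.06. Among enzymes of lipids, Acox2, a peroxisomal oxidase of branched fatty acids and bile acid precursors, rose by 0.90 ± 0.10 and Cyp4f39, a fatty acid hydroxylase, by 0.40 ± 0.08. Cyp4f39 had an effect of 0.01 with NEDD and 0.25 with PCNB. Acox2 was the only riser among 17 genes of fatty acid oxidation (5.88%, against 0.35% of all genes). The median mean effect of these 17 genes was 0.02. Of the 17, 10 had a positive effect with NDA, 7 with NEDD, 8 with PCNB and 13 with benzofuran.

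Members outside these pathways included surface and secreted proteins. Gp2, a surface glycoprotein by which M cells take up bacteria, had a mean effect of 1.28 ± 0.14 of which NDA gave 83.5%. Its signals were 8.01 to 8.54 with NDA, 3.83 to 4.22 with NEDD and 3.90 to 4.41 with PCNB, against 3.79 to 4.32 in feed control. Benzofuran lungs had 4.61 to 5.33, against 3.96 to 4.68 in corn oil control. NEDD, PCNB and benzofuran overlapped their controls, and both control means lay below the 40th percentile of the arrays, which averaged 5.03, where a low signal is not told apart from background. Only arrays with NDA or benzofuran exceeded that average, so that Gp2 was tested because of them. Its NEDD and PCNB effects rest on signals below that average.

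Fetub, a secreted protein best known from liver, rose by 1.11 ± 0.12 with effects of 2.68, 0.12, 0.14 and 1.499 for NDA, NEDD, PCNB and benzofuran. Upk3a, a uroplakin that marks a subset of club cells, rose by 0.45 ± 0.09, the only riser among 8 club cell markers (12.5%, against 0.35% of all genes). The median mean effect of the 8 markers was -0.01. Of the 8, 2 had a positive effect with NDA, 2 with NEDD, 4 with PCNB and 5 with benzofuran. Uchl1, a ubiquitin hydrolase of neurons and endocrine cells, rose by 0.49 ± 0.09, the metalloproteinase Mmp23 by 0.44 ± 0.09 and the lysosomal glycoprotein Creg1 by 0.41 ± 0.07. The clone A930003A15Rik rose by 0.62 ± 0.13. Effects with NEDD and PCNB were 0.05 and 0.006 for Upk3a, 0.10 and 0.04 for Uchl1 and 0.03 and 0.07 for Mmp23. They were 0.04 and 0.23 for Creg1 and 0.13 and 0.03 for A930003A15Rik. Uchl1, H60c and A930003A15Rik had both control means below the same percentile as Gp2. Uchl1 and A930003A15Rik exceeded its average of 5.03 only with NDA and benzofuran, so that those arrays brought them into the test.

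H60c and Zfp128 were among the genes with the largest shares from NEDD and PCNB. H60c encodes a ligand of the activating receptor NKG2D and had effects of 1.07, 0.34, 0.54 and 0.51 for NDA, NEDD, PCNB and benzofuran, with a mean of 0.62 ± 0.12 (adjusted p = 0.0293 in limma). Its arrays with NEDD and PCNB overlapped feed control, where feed control 29 was the highest at 5.11. Zfp128, a zinc finger gene, had effects of 0.45, 0.51, 0.44 and 0.10 and a mean of 0.37 ± 0.07 (adjusted p = 0.0355 in limma). Its signals were 5.92 to 6.01 with NDA, 6.01 to 6.02 with NEDD and 5.69 to 6.17 with PCNB, against 5.31 to 5.69 in feed control. Benzofuran lungs had 5.93 to 6.04, against 5.87 to 5.897 in corn oil control. Corn oil control stood 0.38 above feed control for Zfp128, and the gene's other probe set had a mean effect of -0.30, opposite in sign. In all, 11 of the 29 genes had 18 other probe sets, of which 17 had a positive mean effect and 10 had 4 positive effects. Shared sign therefore depended in part on the probe set used.

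**Figure D2:**
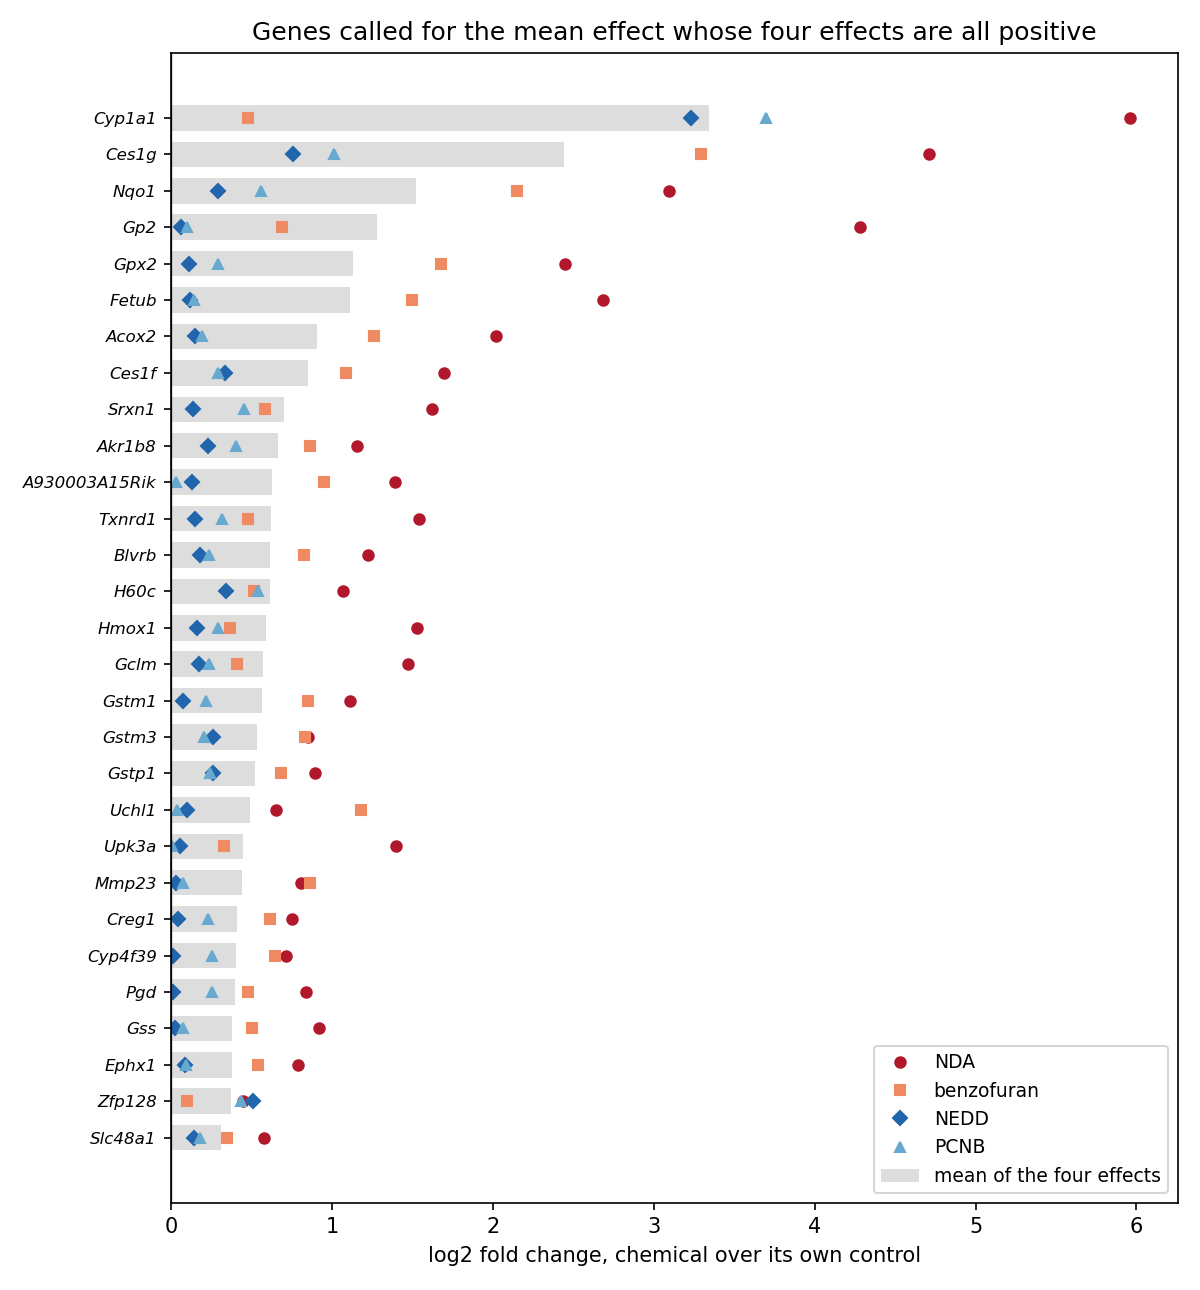
Log2 fold change of each chemical over its own control (symbols) and the mean of the 4 effects (grey bars) for the 29 genes called with 4 positive effects, ordered by the mean. NDA is the largest effect in 26 genes and NEDD the smallest in 21; Cyp1a1 is the gene in which benzofuran is far below the 3 feed effects.

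Sharing a sign did not mean sharing a size. NDA gave the largest effect in 26 of the 29 genes, benzofuran in 2 (Uchl1 and Mmp23) and NEDD in 1 (Zfp128). The smallest effect was NEDD's in 21 genes, PCNB's in 6 and benzofuran's in 2. Median effects over the 29 genes were 1.22 with NDA, 0.14 with NEDD, 0.23 with PCNB and 0.68 with benzofuran. NDA made up a median of 49.8% of the sum of the 4 effects, benzofuran 33.2%, PCNB 9.58% and NEDD 5.15%. NEDD and PCNB together gave under 25% of the sum in 25 genes, the exceptions being Cyp1a1, H60c, Zfp128 and Slc48a1. The 29 genes were chosen from these same 4 effects, a choice that can favour genes with a large effect of a single chemical. Their share in a test of the same effects is therefore not independent of that choice. The moderated F test found that the 4 effects differed among themselves in 26 of the 29 genes, against 312 of all genes tested (2.32%). H60c, Zfp128 and Gstm3 were the 3 genes in which it did not, with adjusted p of 0.131, 0.507 and 0.0845 in limma, which does not show that their effects were alike.

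Single comparisons show the same spread of sizes. Among the 29, 28 were called higher with NDA (1.12% of all genes), all except Zfp128, and 20 with benzofuran (1.56% of all genes). With NEDD (0.0149%) and with PCNB (0.0149%) Ces1g and Cyp1a1 were called. These 2 were the only genes called higher in either comparison, and the 3 feed comparisons share the feed control arrays. NEDD and PCNB averaged together gave an effect of 0.88 ± 0.11 for Ces1g (adjusted p = 0.00103 in limma) and 3.46 ± 0.38 for Cyp1a1 (adjusted p = 0.00059 in limma).

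Leaving out 1 chemical at a time moved the count of called genes in opposite directions. The mean of NEDD, PCNB and benzofuran without NDA raised 6 genes (0.0447%), Ces1g, Nqo1, Cyp1a1, Gpx2, Gstm1 and Gstp1, all among the 29. Without benzofuran the mean of the 3 feed effects raised 17 genes (0.127%) and lowered 1, the transporter Slc4a5, named after its value was seen. Without NEDD 103 genes rose (0.767%) and 9 fell, and without PCNB 92 rose and 16 fell. Leaving out NEDD or PCNB kept the call of all 29 genes, leaving out benzofuran that of 13 and leaving out NDA that of 6.

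**Figure D3:**
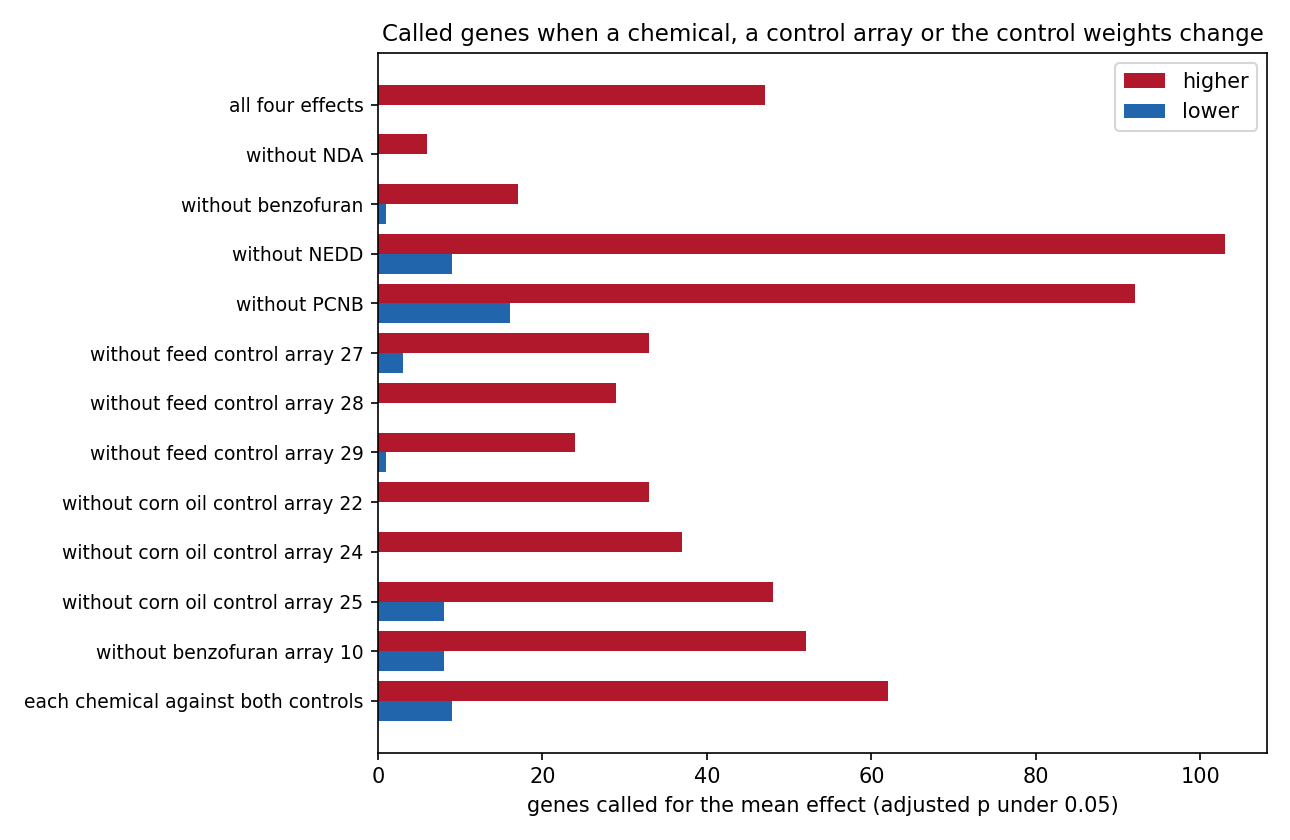
Number of genes called higher and lower for the mean effect (bars) with all arrays, without 1 chemical, without 1 control array or benzofuran array 10, and with each chemical set against both controls. The count of higher genes is 47 with all arrays, 6 without NDA and 103 without NEDD.

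The feed arm and the gavage arm share no array and can be set side by side. For the mean of the 3 feed effects 17 genes were called higher, for benzofuran 210, and 10 for both (0.0744% of all genes), which is 58.8% of the first list and 4.76% of the second. The 10 were Ces1g, Nqo1, Gpx2, Txnrd1, Acox2, Fetub, Gstm1, Gstp1, Ces1f and Cbr3, a carbonyl reductase. All 17 genes of the feed list had a positive benzofuran effect, as did 60.2% of all genes. The count of 10 was 4 without feed control 29, 5 without feed control 28, 15 without benzofuran 10 and 19 without benzofuran 8. When benzofuran was set beside the mean of NEDD and PCNB alone, 1 gene was called in both, Ces1g.

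The 210 genes that rose with benzofuran moved differently with each feed chemical. Their NDA effect was positive in 181 (86.2%, against 44.1% of all genes), their PCNB effect in 96 (45.7%, against 43.6%) and their NEDD effect in 65 (31.0%, against 45.8%). Of the 23 genes that fell with benzofuran, 1 had a positive NDA effect, 9 a positive NEDD effect and 13 a positive PCNB effect.

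**Figure D4:**
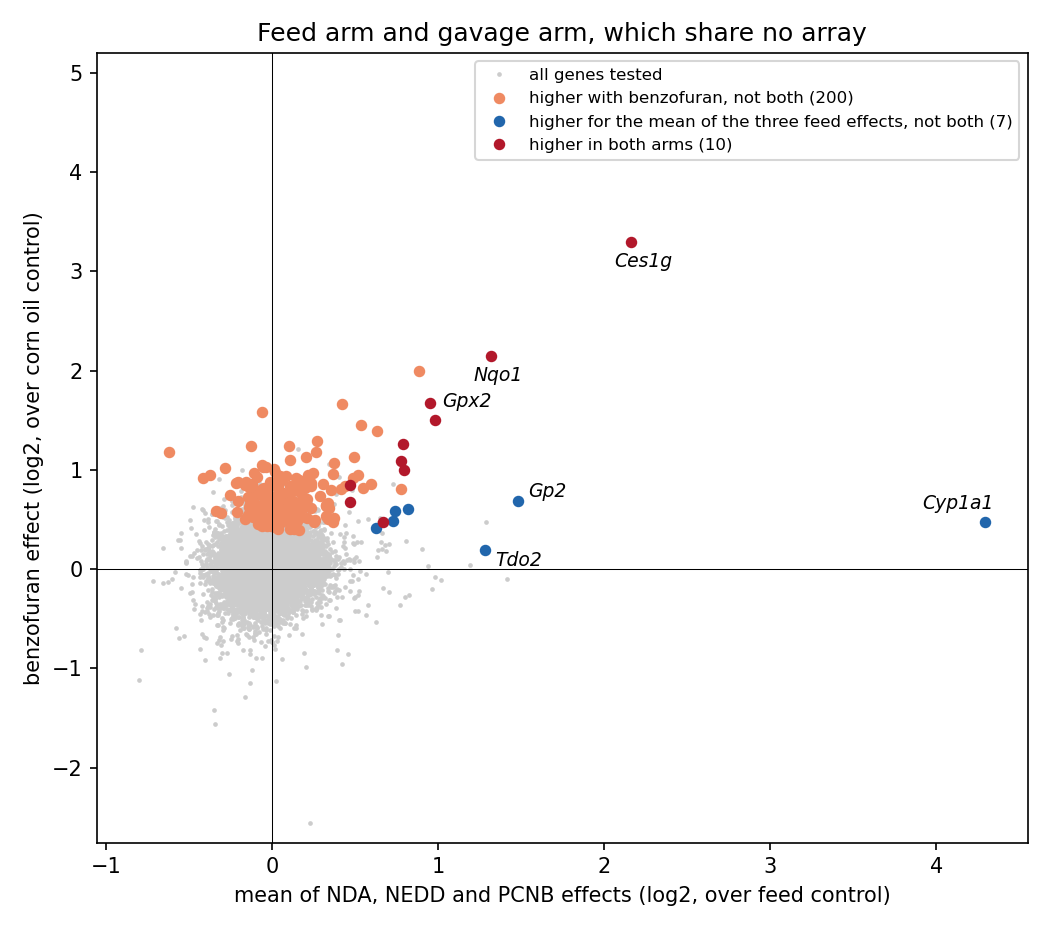
Mean of the NDA, NEDD and PCNB effects (horizontal, log2) against the benzofuran effect (vertical, log2) for every gene tested, with called genes in colour. The 10 genes higher in both arms lie in the upper right with Ces1g farthest out, and Cyp1a1 lies far right with a benzofuran effect of 0.47.

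The feed control enters the mean effect 3 times. Its weight is 0.75, against 0.25 for each other group, so that its 3 arrays carry 64.3% of the variance of the mean effect and each other group 7.14%. The standard error of the mean effect was therefore 0.661 of that of 1 effect. Among the 1829 genes with 4 positive effects, corn oil control was also above feed control in 1077 (58.9%, against 41.7% of all genes), which makes feed control the lowest of the 6 groups. Among the 1802 genes with 4 negative effects, corn oil control was below feed control in 1145 (63.5%, against 58.3% of all genes), which makes feed control the highest group.

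Among the called genes, feed control was the lowest of the 6 groups in 15 of the 29 genes, and the 4 treated means lay above both control means in 26. These counts were 1712 and 1232 over all 13434 genes tested, and 1077 and 1232 over the 1829 genes with 4 positive effects. The median mean effect of the 29 was 0.59, and it was 0.58 when each chemical was set against the mean of both controls. That contrast raised 62 genes (0.462%), among them 28 of the 29, and lowered 9 (0.067%). Corn oil control and feed control differed in 0 genes in limma, and in 271 (2.02%) at an unadjusted p under 0.05. The count of 47 was 29 without feed control 28 and 24 without feed control 29, and 17 and 18 of the 29 genes kept their call in those fits. The count of 29 was 19 without NEDD 15.

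No gene passed the test on the lower side, although besides the fit with array weights 24 did with a covariate for RNA integrity and 9 with each chemical against both controls. The 5 genes of 4 negative effects with the smallest p were Lrrc74b, Car14, Prickle1, Tmem184c and Gpr155, none of them called. Lrrc74b had 5.99 to 6.42 with NDA, 6.35 to 6.46 with NEDD and 6.46 to 6.79 with PCNB, against 6.79 to 7.21 in feed control. Benzofuran lungs had 6.78 to 6.91, against 6.71 to 7.29 in corn oil control, with overlap. Its mean effect was -0.46 ± 0.10 (adjusted p = 0.0504 in limma). Car14, a membrane carbonic anhydrase, had a mean effect of -0.27 and Prickle1, a planar cell polarity protein, of -0.35. Cct8 had 9.55 to 9.93 on the treated arrays, against 9.93 to 10.04 on the control arrays, with a mean effect of -0.18 and an adjusted p of 0.441 in limma. Next to the threshold stood Mmp23 on the called side (adjusted p = 0.0463) and, on the other, Edem2 (0.0514) and the myosin light chain Myl3 (0.0538), both higher with 4 positive effects.

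Called genes of mixed sign numbered 18, and those with the largest mean were Sptssb, Tdo2 and Cbr3. Sptssb, a subunit that speeds sphingolipid synthesis, had 7.81 to 8.14 with NDA, 4.68 to 5.42 with NEDD and 4.80 to 4.99 with PCNB, against 4.78 to 5.47 in feed control. Benzofuran lungs had 6.19 to 7.53, against 4.32 to 5.37 in corn oil control. Its mean effect was 1.16 ± 0.20, and only the NDA and benzofuran arrays lay above their controls. Tdo2, which opens the tryptophan ring, had effects of 3.72, 0.00, 0.13 and 0.19 for NDA, NEDD, PCNB and benzofuran. It had 6.70 to 7.66 with NDA and 3.05 to 3.71 on the other 15 arrays. Those 15 values lay below the 25th percentile of the arrays, which averaged 4.11, so that Tdo2 was tested because of its NDA arrays and the size of its effects rests on a signal not told apart from background. Cbr3 had effects of 2.09, 0.00, 0.28 and 1.00, the NEDD effects of Tdo2 and Cbr3 being just below 0.

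The remaining pathway lists had no call. No gene was called among 28 of the cell cycle, 7 CAR and PXR targets, 23 interferon-response genes, 15 p53 targets, 21 genes of unfolded protein and amino acid stress, 15 heat shock genes, 19 clock genes, 15 glucocorticoid-response genes, 17 immediate early genes, 17 matrix genes, 16 of cholesterol synthesis, 23 proteasome subunits and 19 of DNA repair. Cell cycle genes had a median effect of 0.50 with NDA, 0.35 with NEDD, 0.12 with PCNB and -0.24 with benzofuran, and 4 of the 28 had 4 positive effects. Corn oil control stood a median of 0.60 above feed control for this list, with a summed signal of 5348 to 6233 in corn oil control and 4468 to 4657 in feed control. Racgap1, which acts in cytokinesis, had the smallest p of the list (mean effect 0.25, adjusted p = 0.219 in limma).

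**Figure D5:**
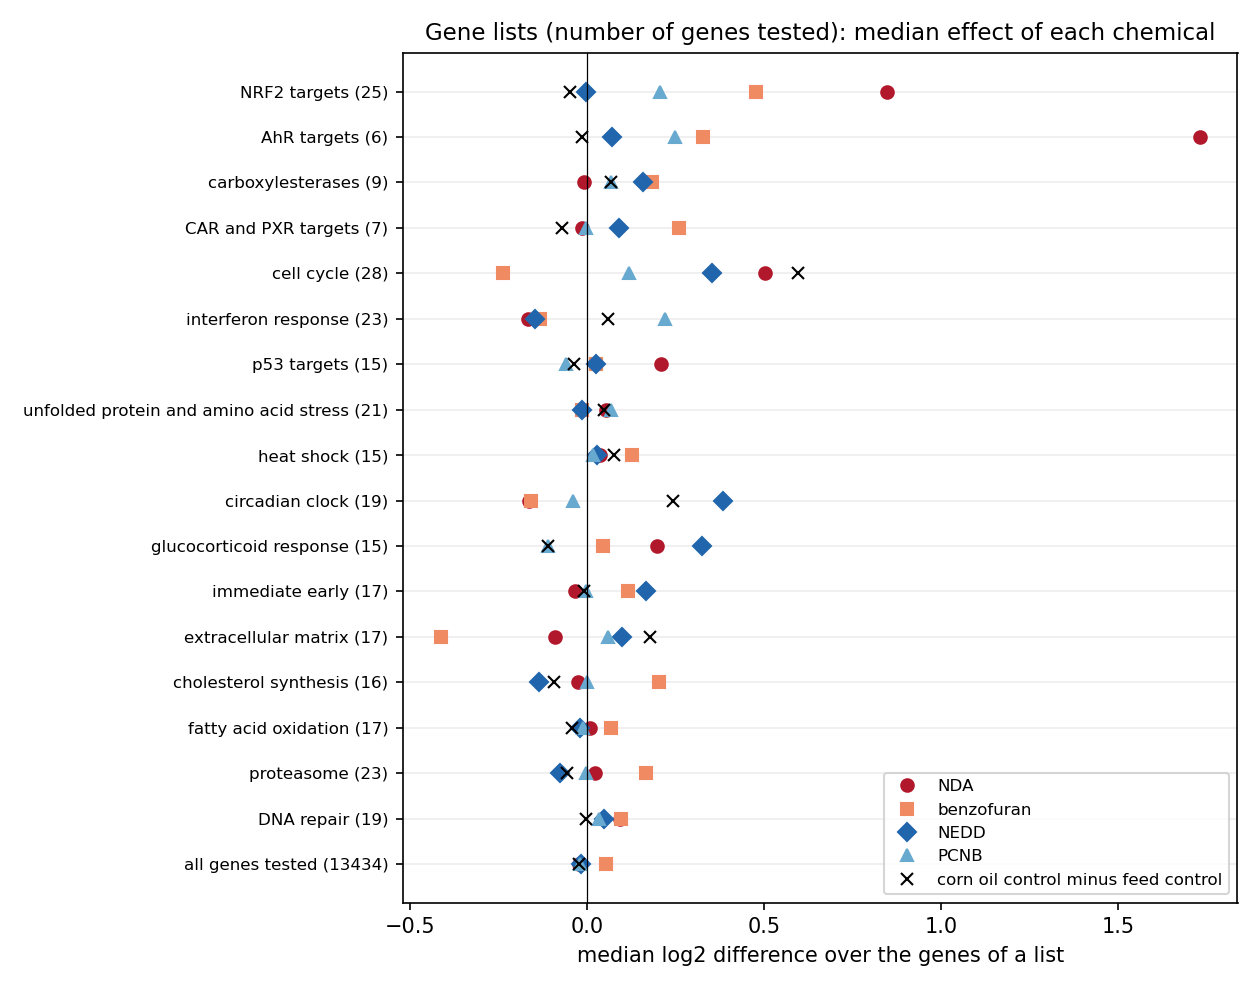
Median log2 difference over the genes of each list for each chemical against its own control (symbols) and for corn oil control minus feed control (crosses), with the number of genes tested in brackets. NRF2 targets lie farthest to the right for benzofuran, at 0.48, and AhR targets for NDA, with NRF2 targets next at 0.85. AhR targets lie at 1.73 for NDA, 0.33 for benzofuran, 0.25 for PCNB and 0.07 for NEDD. For cell cycle genes the crosses lie at 0.60 while benzofuran lies at -0.24.

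Markers of cell types were read in the same way, and besides Upk3a none of them was called. Of 9 neutrophil markers 0 were called, 5 had 4 negative effects (against 13.4% of all genes) and the median mean effect was -0.28. The calprotectin subunit S100a8 had 11.47 to 11.66 with NDA, 11.35 to 11.64 with NEDD and 10.61 to 11.94 with PCNB, against 11.81 to 12.10 in feed control. Benzofuran lungs had 10.45 to 11.30, against 11.37 to 11.61 in corn oil control. Its mean effect was -0.57 ± 0.17 (adjusted p = 0.286 in limma), and PCNB overlapped feed control. The summed signal of the 9 markers was 5681 to 6728 with NDA, 5430 to 6723 with NEDD and 4057 to 7917 with PCNB, against 7274 to 8833 in feed control, and 3262 to 5334 with benzofuran, against 5491 to 7673 in corn oil control. Its part in the other results was not tested.

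Erythroid markers had a median mean effect of 0.43 over 4 genes, with none called. Alas2, which makes the first precursor of heme in red cells, had effects of 0.93, 0.86, 0.10 and 0.12 for NDA, NEDD, PCNB and benzofuran and a mean of 0.50 ± 0.17 (adjusted p = 0.403 in limma). The other marker lists had medians of the mean effect between -0.14 and 0.14. These lists were alveolar type 2, alveolar type 1, club and ciliated cells, endothelium, alveolar macrophages, B and plasma cells, T and NK cells, adipocytes, cardiac and skeletal muscle, mesothelium, and fibroblasts with smooth muscle.

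A median near 0 for the mean effect can cover shifts with single chemicals. The summed signal of 11 B and plasma cell markers was 15440 to 28008 with NDA, 5239 to 6110 with NEDD and 6673 to 7066 with PCNB, against 5724 to 7048 in feed control. It was 5403 to 7214 with benzofuran, against 5271 to 7361 in corn oil control, so that NDA alone lay apart. Ighm, the heavy chain of IgM, had effects of 3.78, -0.17, 0.63 and -0.10 for NDA, NEDD, PCNB and benzofuran. Of 13 ciliated cell markers, 8 had a positive effect with NDA, 0 with NEDD, 1 with PCNB and 13 with benzofuran, with list medians of 0.07, -0.27, -0.16 and 0.48. Of 11 endothelial markers, 0 had a positive effect with NDA, 5 with NEDD, 4 with PCNB and 3 with benzofuran, with list medians of -0.28, -0.03, -0.03 and -0.23. Their part in the results for the 29 genes was not tested.

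A measure of RNA integrity moved with the groups. The difference between the 3′ and 5′ actin probe sets, which grows as RNA breaks down, was 0.33 to 0.43 with NDA, 0.35 to 0.53 with NEDD and 0.35 to 0.58 with PCNB, against 0.58 to 0.73 in feed control. It was 0.35 to 0.91 with benzofuran, against 0.42 to 0.64 in corn oil control. With this difference as a covariate 100 genes rose and 24 fell, and 26 of the 29 genes remained called. Benzofuran 10 stood apart with an array weight of 0.12 and the lowest array median (5.68, others 5.75 to 5.80); without it 52 genes rose, 8 fell and 28 of the 29 remained called.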

How the data were processed

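Total RNA of 18 lungs was hybridised to Affymetrix whole-genome mouse arrays, 10 µg per array, per the labels' protocols. The deposited values are log2 signals per probe set. Base 2 was judged from their range of 2.48 to 14.78. For probe summary and normalization the method is not given in the sources used here. They were used without further scaling.

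Of 45101 probe sets, 34945 had a single gene symbol in the platform annotation, 932 several, and 34741 were matched by gene ID to RefSeq of GRCm38.p6. A gene was represented by its probe set with the highest mean and tested if 3 or more arrays had it above their 40th percentile. This kept 13434 of 18193 genes. With limma 3.58.1 (R 4.3.3), a model of 1 mean per group used every array and left 12 residual degrees of freedom. P-values are two-sided.

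The members and gene lists were chosen with earlier results of these data known. Named genes are, among called genes of shared sign, the 12 with the largest mean and the 6 with the largest smallest effect per direction (the 5 smallest p where under 5 qualify), genes called in all 4 chemicals or with all arrays apart, up to 4 called members per list (otherwise the smallest p) and the 3 largest of mixed sign. Other names, such as Cct8, Edem2 and the remaining of the 29, were added after their values were seen. The text also prints genes whose effects differ between arms. The 32 lists comprise 17 pathways and 15 cell type marker lists. In simulated data 200 of 13434 genes were changed by the same fold on all 12 treated arrays, with independent normal noise. There the mean effect recovered 45.7% of genes changed 1.25-fold, 86.3% at 1.5-fold and 97.9% at 2-fold, with 6.02% of calls false. The real effects were unequal between chemicals and the real arrays unequal in quality, so that these rates need not hold for them. The number of arrays limits the precision. Each array holds 1 numbered animal, per the labels.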

Additional observations from a re-analysis of the deposited data

Results flagged for a closer look

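The mean of the 3 feed effects differed from the benzofuran effect in 10 genes (adjusted p between 0.00759 and 0.0443 in limma), by a test of the difference itself. Among the genes of 4 positive effects these were Cyp1a1, with a difference of 3.82, and Ces1g, with -1.14. In the other 8 the benzofuran effect was the higher one. Gsta3, a glutathione transferase, differed by -0.73, Serpind1, a thrombin inhibitor, by -0.997, Mthfd1, an enzyme of folate metabolism, by -0.86, and Deup1, a protein of centriole formation in ciliated cells, by -0.99. Iqca differed by -0.90, Rptoros by -1.08, 2410004I01Rik by -1.02 and the hepatic lectin receptor Asgr1 by -1.80. The list held 252 genes without benzofuran 8, 5 without feed control 27, and 6 without either feed control 28 or PCNB 18. Single genes were not searched for outlying arrays, since the groups hold 3 arrays each.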

How the results depend on the processing

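All 29 genes kept a positive mean effect under each alternative in which they were tested. For many alternatives this was fixed in advance, because the genes were chosen for 4 positive effects. Leaving out a chemical, weighting the arms equally or using the feed arrays alone averages those same effects. A stricter threshold or another empirical Bayes setting leaves the estimate unchanged. Their call was kept by 17 in every fit without 1 array, and by 6 (Ces1g, Nqo1, Cyp1a1, Gpx2, Gstm1 and Gstp1) in every alternative run. Calls kept in the fewest of the 18 fits without 1 array were those of Hmox1 (2), Mmp23 (3), Cyp4f39 (4), A930003A15Rik (4), Slc48a1 (5), Zfp128 (5) and Gstm3 (6). Over 67 named genes, 0 of 2404 alternatives reversed a sign, 229 lost a call and 52 gained one. The 2404 include alternatives that leave the estimate unchanged, where no sign could reverse. No paired analysis was possible because no animal number occurs in more than 1 group. The causes of the shifts below were not tested.

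Without 1 array, higher genes ranged from 24 to 52, lower from 0 to 8, called genes of shared sign from 19 to 39, genes called in all 4 chemicals from 0 to 1, genes whose effects differ from 186 (without NDA 5) to 469 (without benzofuran 10), feed-arm genes from 7 (without feed control 29) to 29 (without benzofuran 10), genes of both arms from 4 to 19, genes differing between arms from 5 to 252, and genes of shared sign from 1601 to 2277 higher and from 1506 to 2405 lower. Array weights gave 269 higher, 284 lower, 462 of shared sign, 1738 with differing effects, 64 in the feed arm, 29 in both arms and 186 differing between arms. The actin covariate gave 100 higher, 24 lower, 101 of shared sign, 0 in all 4 chemicals, 514 with differing effects, 20 in both arms and 3281 genes with 4 positive effects. Equal weight for both arms gave 94 higher, 12 lower and 54 of shared sign, and each chemical against both controls 9 lower. The feed arrays alone gave 24 higher, 2 lower and 19 of shared sign. At an adjusted p under 0.01 there were 26 higher, 17 of shared sign, 0 in all 4 chemicals, 159 with differing effects, 11 in the feed arm, 6 in both arms and 5 differing between arms. A log2 limit of 0.5 left 19 of shared sign. No gene was called in all 4 chemicals (0) with trend and robust empirical Bayes, with median centring or over every probe set. With no filter 2928 genes had 4 positive effects, and over every probe set 2883 had 4 positive and 2736 had 4 negative ones. The arms differed in 6 genes with the 50th percentile filter, 6 over every probe set and 6 with the mean over a gene's probe sets, which also gave 3 lower. Set beside the mean of NEDD and PCNB, an alternative chosen after seeing the data, benzofuran shared 1 gene. Leaving out NDA, NEDD, PCNB or benzofuran gave 6, 103, 92 and 17 higher genes, 0, 9, 16 and 1 lower genes, and 6, 87, 74 and 14 of shared sign in that order.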
